A study of Homo sapiens with 12 samples.

Results

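The mRNAs of the chaperonin TRiC, also called CCT, were followed in RNA from 80S ribosome fractions and in RNA recovered from those fractions with tagged RPL12. The members were the 8 genes whose Ensembl identifier equals ENSG00000120438 (TCP1), ENSG00000166226 (CCT2), ENSG00000163468 (CCT3), ENSG00000115484 (CCT4), ENSG00000150753 (CCT5), ENSG00000146731 (CCT6A), ENSG00000135624 (CCT7) or ENSG00000156261 (CCT8). All 8 were found among 57820 identifiers, and all 8 passed the filter on low counts that left 16920 genes.

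TRiC is the cytosolic chaperonin of eukaryotes, a pair of stacked rings that close over an unfolded protein and use ATP to fold it. Each ring holds 1 copy of each of the 8 subunits, so the complex needs all 8 mRNAs to be translated. Actin, tubulin and the mitotic activator CDC20 are its best known clients. Work in yeast places TCP1, CCT2, CCT4 and CCT5 on the side of the ring that binds ATP strongly, and CCT3, CCT6A, CCT7 and CCT8 on the side that binds it weakly.

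The cells were HEK293 Flp-In T-REx, an established human embryonic kidney line. Stable lines overexpressed RPL12, a protein of the large ribosomal subunit, with a FLAG/HA tag in 1 of 3 forms: S38D (aspartate in place of serine at position 38, a mimic of phosphorylation), S38A (alanine there, which cannot be phosphorylated) or wild type (WT). Per the labels, each line came from hygromycin-selected monoclonal colonies, so line and RPL12 form coincide, and no removal of the cells' own RPL12 is mentioned. Sucrose gradients gave pooled 80S fractions. An anti-FLAG immunoprecipitate (IP) was taken from each, and an aliquot of it, not precipitated, was the input. Polyadenylated RNA was sequenced from S38D IP, S38D input, S38A IP, S38A input, WT IP and WT input, with 2 libraries in each group. The labels do not say that replicates were separate cultures, so p-values measure library-to-library spread that may be only technical. No IP from cells without the tag was analysed here, so RNA bound without the tag cannot be told apart from RNA recovered through RPL12.

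Gene counts ranged from 3186164 to 7430881 in IP libraries and from 7434431 to 8723130 in inputs. ERCC spike-in RNA, a set of synthetic transcripts, took 3.43% ± 1.65 of all counts in IP libraries and 0.305% ± 0.127 in inputs (SD, n = 6 each). The files pair no identifier with a name, and 0 of the 59792 genes in the reference table carry an Ensembl identifier. RPL12 itself, marker genes of HEK293 cells and the cofactors, relatives and clients of the chaperonin, which were listed by symbol, were therefore not analysed here.

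The first comparison asked whether chaperonin mRNAs were recovered with tagged RPL12 in another proportion than they had in the 80S input. All 8 mRNAs were higher in IP than in input over the 3 lines, by 1.25-fold (CCT2) to 1.71-fold (CCT3). Summed over the 8 genes, they took 0.223% ± 0.0176 of gene counts in IP libraries and 0.179% ± 0.0143 in inputs (SD, n = 6 each). The ranges of the summed share were 0.197% to 0.243% in IP libraries and 0.156% to 0.198% in inputs, which overlap slightly. IP and input of a fraction came from the same cells. Between lines, fewer cells with an mRNA and less of it per cell cannot be told apart in these bulk libraries. Each of the 8 passed the edgeR quasi-likelihood test at an adjusted p under 0.05, and 0 were lower. Of all genes tested, 15.9% were called higher, and of the 4230 most abundant, which include all 8 members, 37.3% were. The shares given further below are of all genes and were not computed for the most abundant ones alone. The median log2 change was 0.48 for the members, 0.17 for the 4230 most abundant genes and -0.04 for all genes. Levels below are CPM (counts over the library's size, in a common unit) after TMM scaling, which sets the sizes so that most genes do not move.

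On the side that binds ATP strongly in yeast, TCP1, the subunit after which the family is named, had 373 and 367 CPM in S38D IP, 338 and 283 in S38A IP, and 375 and 372 in WT IP. Its inputs held 235 and 227 CPM in S38D, 236 and 210.3 in S38A, and 239 and 285 in WT. The lowest IP value, from S38A, lay just under the highest input value, from WT, and the other 5 IP libraries were above every input. TCP1 averaged 351 ± 36.1 CPM in IP libraries and 239 ± 25.03 CPM in inputs (SD, n = 6 each), a log2 change of 0.56 (SE 0.0927, edgeR adjusted p = 0.0009417).

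CCT2, which sits between CCT5 and CCT4 in the ring, had 216 and 239.7 CPM in S38D IP, 217 and 185 in S38A IP, and 219.7 and 245 in WT IP. In the inputs it had 166 and 182 CPM in S38D, 177 and 165 in S38A, and 171 and 197 in WT. The 2 sets overlapped in a single IP library, the second of S38A. CCT2 averaged 220.3 ± 21.2 CPM in IP libraries and 176 ± 12.2 CPM in inputs, a log2 change of 0.32 (SE 0.0910, edgeR adjusted p = 0.01796), the smallest of the 8. CCT2 did not pass when the second S38A input (edgeR adjusted p = 0.05315), the second S38D IP (0.05525), the first WT input (0.06252), the first S38D input (0.06271) or the first S38A IP (0.07173) was left out.

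CCT4 and CCT5, human subunits that can each form rings of their own in the test tube, moved by similar amounts. CCT4 had 199.7 and 188 CPM in S38D IP, 204 and 149.7 in S38A IP, and 174 and 248 in WT IP. Its inputs held 134 and 132 CPM in S38D, 143 and 112 in S38A, and 149 and 169 in WT. The WT IP replicates of CCT4 lay farther apart than those of the other lines, and the lowest IP value again came from the second S38A library. CCT4 averaged 194 ± 32.9 CPM in IP libraries and 139.8 ± 19.0 CPM in inputs, a log2 change of 0.47 (SE 0.119, edgeR adjusted p = 0.009214). CCT5 had 239 and 203 CPM in S38D IP, 222 and 188 in S38A IP, and 250.1 and 254 in WT IP. Its inputs held 164 and 139 CPM in S38D, 173 and 139 in S38A, and 171 and 199.8 in WT. Only the second S38A IP of CCT5 fell below the highest input, the second of WT. CCT5 averaged 226 ± 26.4 CPM in IP libraries and 164 ± 22.9 CPM in inputs, a log2 change of 0.46 (SE 0.101, edgeR adjusted p = 0.004365).

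On the other side of the ring, CCT3, which sits between TCP1 and CCT6A, had 613 and 819.9 CPM in S38D IP, 534 and 429 in S38A IP, and 727 and 642 in WT IP. Its inputs held 346 and 388 CPM in S38D, 383 and 288 in S38A, and 355 and 413 in WT. All 6 IP libraries lay above all 6 inputs, and the S38A IP libraries were the lowest of the IP. CCT3 averaged 627 ± 138 CPM in IP libraries and 362 ± 43.5 CPM in inputs, a log2 change of 0.77 (SE 0.120, edgeR adjusted p = 0.0006475). This was the largest change of the 8.

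CCT7, which sits between CCT8 and CCT5, had 189.8 and 212 CPM in S38D IP, 180.0 and 178 in S38A IP, and 206 and 227 in WT IP. Its inputs held 135 and 131 CPM in S38D, 151 and 114 in S38A, and 151 and 165 in WT. All 6 IP libraries of CCT7 were above all 6 inputs. CCT7 averaged 199 ± 19.5 CPM in IP libraries and 141 ± 18.2 CPM in inputs, a log2 change of 0.49 (SE 0.0947, edgeR adjusted p = 0.002088). CCT3 and CCT7 were thus the 2 of 8 members whose IP and input libraries did not overlap, where 6.15% of all genes had IP above input in that way. With total counts in place of TMM, 2.72% of all genes had IP above input in that way, and the 2 of 8 members were CCT3 and TCP1. The lowest IP value of TCP1 was then 295.1 CPM and its highest input 293.1 CPM, while CCT7 overlapped, at 170.1 CPM in the lowest IP and 170.2 CPM in the highest input.

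CCT8, the neighbour of CCT6A and CCT7, had 329 and 410.2 CPM in S38D IP, 340.1 and 229 in S38A IP, and 333 and 321 in WT IP. Its inputs held 212 and 253 CPM in S38D, 244 and 173 in S38A, and 227 and 238 in WT. The second S38A library was the lowest of the IP libraries and of the inputs. CCT8 averaged 327 ± 57.9 CPM in IP libraries and 225 ± 28.8 CPM in inputs, a log2 change of 0.54 (SE 0.127, edgeR adjusted p = 0.0068). CCT6A, whose relative CCT6B is made mainly in testis, had 274 and 311 CPM in S38D IP, 272 and 246 in S38A IP, and 264 and 309 in WT IP. Its inputs held 202 and 216 CPM in S38D, 219.8 and 198 in S38A, and 212 and 261 in WT. The second WT input of CCT6A reached into the IP range. CCT6A averaged 279 ± 25.6 CPM in IP libraries and 218 ± 22.5 CPM in inputs, a log2 change of 0.36 (SE 0.0959, edgeR adjusted p = 0.01348). Without the first WT input CCT6A did not pass (edgeR adjusted p = 0.05045).

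**Figure D1:**
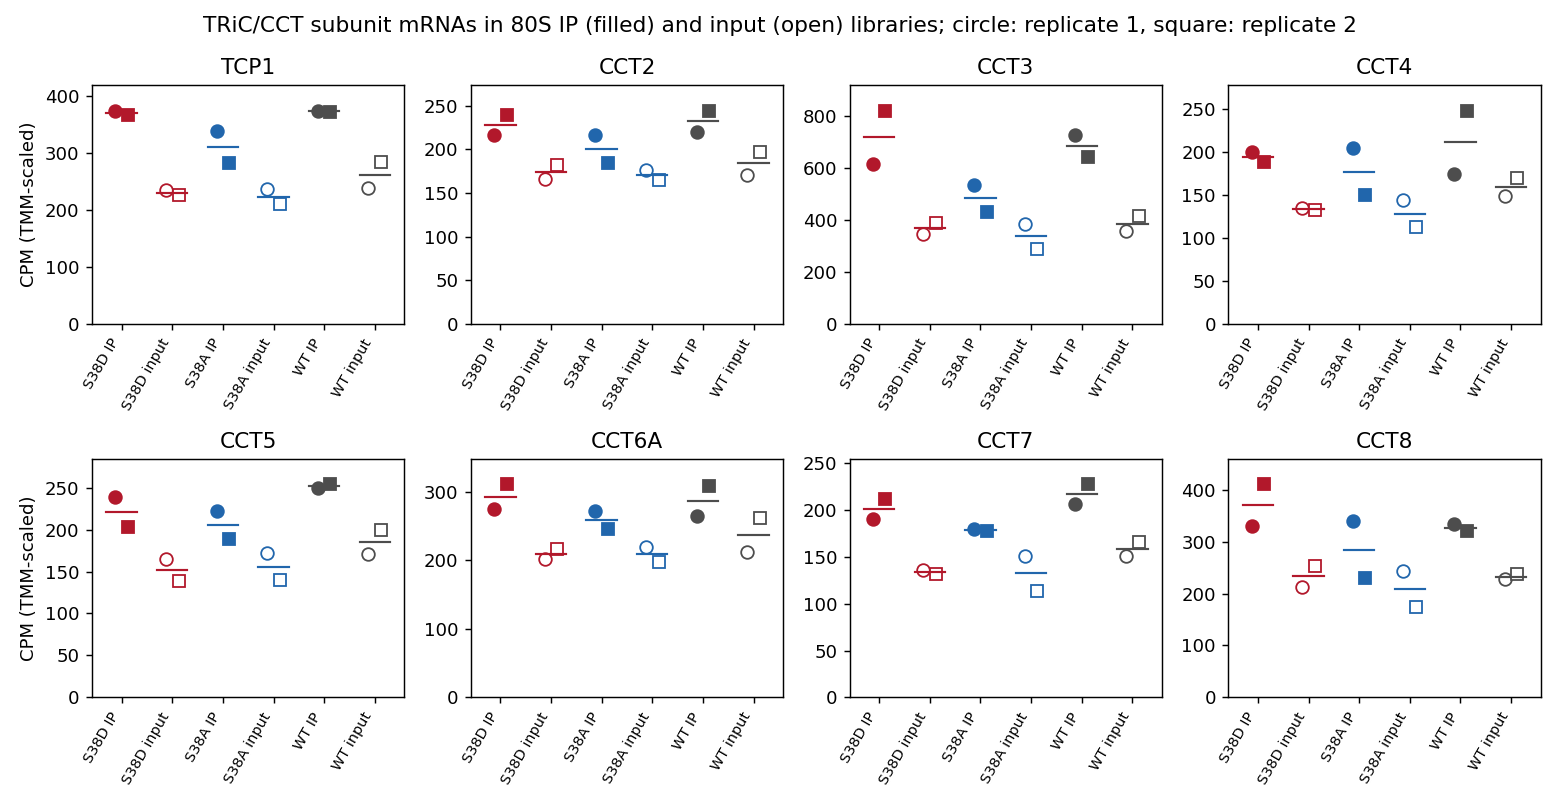
Level of each chaperonin mRNA in CPM after TMM scaling (vertical axes, each from 0) in the 2 IP libraries (filled) and 2 input libraries (open) of S38D, S38A and WT; circles are replicate 1, squares replicate 2 and bars group means. In every panel each line's IP mean lies above its input mean, and CCT3 in S38D IP reaches 819.9 CPM.

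Within fractions, where each IP is set against the input of the same fraction, all 8 mRNAs were higher in IP in 6 of 6 fractions. Of all genes, 20.3% were. The log2 change of CCT3 was 0.82 and 1.08 in the S38D fractions, 0.48 and 0.58 in the S38A fractions, and 1.03 and 0.64 in the WT fractions. CCT2 changed by 0.38 and 0.40 in the S38D fractions, 0.29 and 0.17 in the S38A fractions, and 0.36 and 0.31 in the WT fractions. CCT3 thus had the largest change of the 8 in 4 of 6 fractions and ranked 3 and 2 in the S38A fractions, while CCT2 ranked 6 to 8. The median of the 8 was 0.56 and 0.62 in the S38D fractions, 0.42 and 0.42 in the S38A fractions, and 0.49 and 0.41 in the WT fractions. The median of all genes was between -0.07 and 0.00 in the 6 fractions.

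The size of the change depended on scaling. With library sizes taken as total counts, the median of all genes fell to -0.25 and that of the members to 0.27, so the distance between them was about the same. Then 4 of 8 were called, against 7.67% of all genes: TCP1 (log2 0.34, edgeR adjusted p = 0.007529), CCT3 (0.55, 0.001431), CCT7 (0.28, 0.03313) and CCT8 (0.32, 0.04458). The other 4 had positive values that did not pass, namely CCT5 at 0.25 (edgeR adjusted p = 0.06322), CCT4 at 0.26 (0.1023), CCT6A at 0.14 (0.2455) and CCT2 at 0.10 (0.3707). On this scale 5 of 8 were higher in 6 of 6 fractions, against 9.62% of all genes, and CCT2, CCT4 and CCT6A were higher in 5 of 6. The exception for these 3 was the first WT fraction, with log2 changes of -0.00, -0.14 and -0.05. Its IP library had the lowest gene count, 3186164, and the highest spike-in share, 5.43%, of the 12 libraries, and the part of depth and spike-in content in these values was not tested.

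Same-numbered IP and input libraries of a line came from the same fraction, which an edgeR fit took into account as a replicate block. This fit has fewer residual degrees of freedom than the fit without a block, so its spread rests on less data. It called more of all genes over the 3 lines and in each line. Over the 3 lines it called 8 of 8 higher, against 22.5% of all genes. With the block and total counts together it called 6 of 8, all but CCT2 and CCT6A, against 11.5% of all genes.

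**Figure D2:**
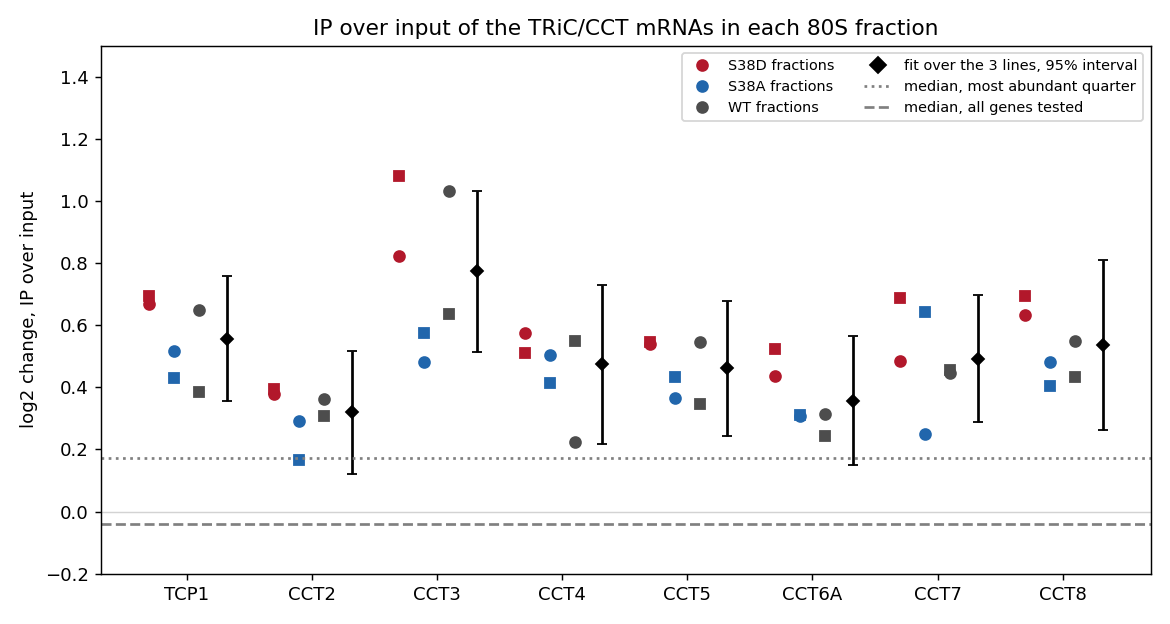
Log2 change of IP over input (vertical axis) for each chaperonin mRNA in the 2 fractions of S38D, S38A and WT (circles replicate 1, squares replicate 2), with the edgeR estimate over the 3 lines and its 95% interval (black diamonds and bars). All points lie above the medians of all genes (dashed, -0.04), and CCT2 in the second S38A fraction (0.17) lies at the median of the 4230 most abundant genes (dotted, 0.17).

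The make-up of the chaperonin mRNA pool was also compared, as each gene's share of the summed counts of the 8, which does not depend on scaling. CCT3 took 25.7% ± 2.89 of the pool in IP libraries and 21.7% ± 0.919 in inputs (SD, n = 6 each). In 6 of 6 fractions the IP library had the higher share, by 3.94 percentage points on average. It took 25.2% and 29.8% in S38D IP, 23.2% and 22.7% in S38A IP, and 28.5% and 24.5% in WT IP, against 20.6% to 23.3% in the 6 inputs. The exact Clopper-Pearson 95% intervals, which cover counting error only, were 28.9% to 30.8% for the second S38D IP and 27.5% to 29.6% for the first WT IP. For the second S38A IP the interval was 22.1% to 23.4%, and that of the second S38D input, the highest input, was 22.6% to 23.9%. The S38A IP libraries thus lay within the range of the 6 inputs, and those of S38D and WT above it. The top of that range is an S38D input. Against the inputs of their own line, at 22.2% and 20.6%, both S38A IP libraries were higher.

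The shares that were lower in IP in 6 of 6 fractions were those of CCT2 and CCT6A. CCT2 took 9.13% ± 0.456 of the pool in IP libraries and 10.6% ± 0.619 in inputs, and CCT6A took 11.6% ± 0.877 in IP libraries and 13.1% ± 0.600 in inputs (SD, n = 6 each). CCT5 was lower in 5 of 6 fractions, and TCP1, CCT4, CCT7 and CCT8 were higher in some fractions and lower in others. A gain in the share of CCT3 lowers the shares of the other 7 by construction. The shares also rest on the same counts as the changes of IP over input. A gene that gained less than the pool falls in share, so the shares are no separate evidence. From high to low, the IP libraries held their spike-in shares in the order first WT (5.43%), second S38D (5.18%), first S38D (3.79%), second WT (2.57%), first S38A (2.15%) and second S38A (1.44%). The share of CCT3 followed the same order, apart from the first 2, which changed places. The part of spike-in content, which goes with fewer gene counts, in the share of CCT3 was not tested.

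**Figure D3:**
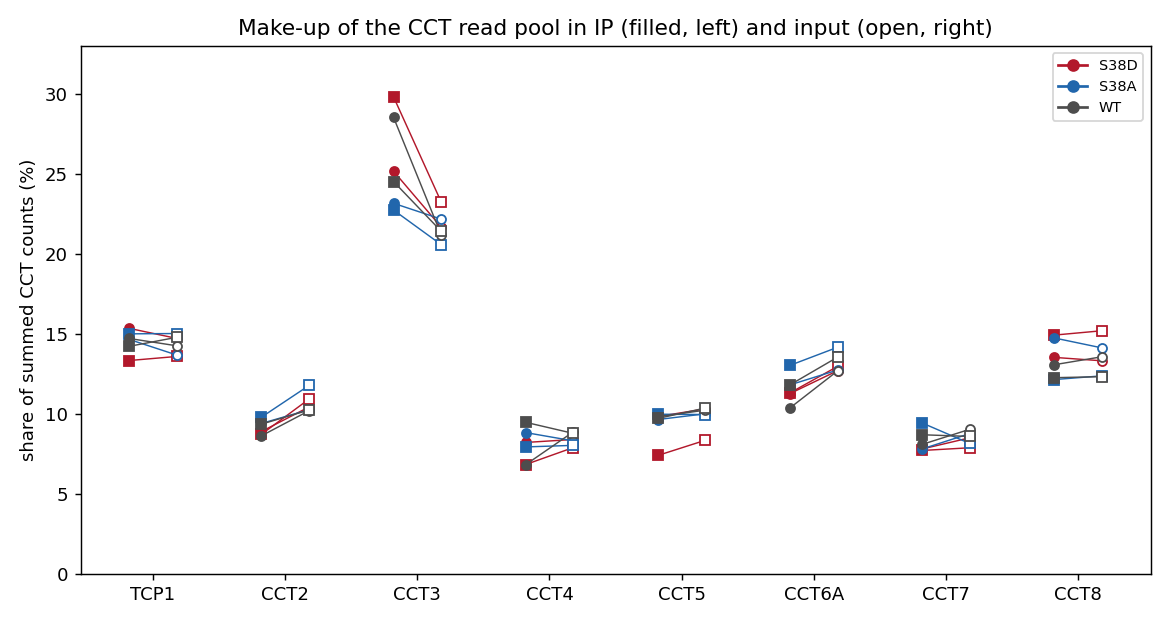
Share of each gene in the summed counts of the 8 chaperonin genes (vertical axis, percent), with each IP library (filled, left) joined to the input of the same fraction (open, right); circles are replicate 1 and squares replicate 2. The lines of CCT3 all run from a higher IP share to a lower input share, and those of CCT2 and CCT6A all run the other way.

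The stretches just upstream of 4 members are shown, 120 bases each, ending at the base before the annotated start. Sequences and positions are from RefSeq on GRCh38.p14, while the counts were made on hg19. They are TCP1 at chr6:159789603-159789722 (minus strand), CCT2 at chr12:69585339-69585458 (plus), CCT3 at chr1:156338293-156338412 (minus) and CCT7 at chr2:73234188-73234307 (plus). Capitals mark CTTCCG or its reverse complement CGGAAG, the core letters bound by ETS factors, and CCAAT or its reverse complement ATTGG, the letters bound by NF-Y.
TCP1: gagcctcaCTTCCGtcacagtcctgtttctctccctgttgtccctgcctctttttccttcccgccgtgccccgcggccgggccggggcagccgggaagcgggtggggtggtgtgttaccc
CCT2: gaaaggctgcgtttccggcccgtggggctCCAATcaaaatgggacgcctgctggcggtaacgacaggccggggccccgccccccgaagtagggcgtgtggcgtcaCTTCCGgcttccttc
CCT3: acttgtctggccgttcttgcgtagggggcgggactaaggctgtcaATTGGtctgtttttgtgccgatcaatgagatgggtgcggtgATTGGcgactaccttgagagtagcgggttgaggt
CCT7: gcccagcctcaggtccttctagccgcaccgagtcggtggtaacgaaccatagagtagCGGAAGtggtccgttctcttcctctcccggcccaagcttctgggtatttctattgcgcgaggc

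Windows from 250 bases before to 50 bases after the start were searched on both strands. Used were 6 members whose window is set on the annotated gene start (TCP1, CCT2, CCT3, CCT4, CCT7 and CCT8). The 35116 windows of all genes were not picked in this way. CTTCCG was found in 4 of 6 (TCP1, CCT2, CCT7 and CCT8), against 19.5% of 35116 windows of all genes. CCAAT was found in 4 of 6 (TCP1, CCT2, CCT3 and CCT8), against 34.6%. TATAAA, the TATA box, was found in 0 of 6, against 11.5%, and GAANNTTC, a pair of heat shock element units, in 1 of 6 (TCP1), against 6.77%. In CCT3, 2 CCAAT matches start at -75 and -34, counted from the gene start, and no CTTCCG match lies in the window. These matches are descriptions of the letters, and none of the motifs overlaps another. Any link of the letters to the levels in IP or input was not tested.

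Each line was then taken separately, still in the fit of all 12 libraries. The log2 change was positive for 8 of 8 mRNAs in all 3 lines, and few of them passed alone. In S38D, 2 of 8 were called, against 3.13% of all genes: CCT3 (log2 0.97, SE 0.209, edgeR adjusted p = 0.02851) and TCP1 (0.68, SE 0.161, adjusted p = 0.03481). The other 6 had values of 0.39 to 0.67 (edgeR adjusted p = 0.0581 to 0.1696). With the fraction as a block 8 of 8 were called, against 10.7% of all genes. With the block and total counts together 3 of 8 were called higher (TCP1, CCT3 and CCT8), and 5184 of all genes in either direction. For this fit the share of all genes called higher was not computed. Its median log2 change was -0.31 for all genes and 0.31 for the members. The calls of CCT3 and TCP1 in S38D were lost when the first (edgeR adjusted p = 0.1758 for both) or second S38D input (0.1938 and 0.2335) or the first (0.07623 and 0.1281) or second S38D IP (0.2139 and 0.1969) was left out. In these fits the log2 change of CCT3 was 0.88, 1.05, 1.16 and 0.74 and that of TCP1 0.71, 0.65, 0.67 and 0.69, and edgeR called 0, 0, 4 and 0 of all genes, so the calls were lost for nearly every gene. TCP1 also did not pass without the first or second WT input (edgeR adjusted p = 0.05578 and 0.05564). CCT7 passed without the first or second WT IP (0.03573 and 0.03133).

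In S38A, 0 of 8 were called by edgeR and 0 by DESeq2, where edgeR called 0% of all genes higher. DESeq2 called 446 of all genes in either direction. The values were 0.23 (CCT2) to 0.52 (CCT3), with edgeR adjusted p = 0.2089 to 0.5188, and 5 of 8 had an unadjusted p under 0.05, where 2575 of all 16920 genes did. With the fraction as a block 6 of 8 were called, against 5.92% of all genes, and CCT6A (edgeR adjusted p = 0.06604) and CCT2 (0.1603) were not. With the block and total counts together 2 of 8 were called higher (TCP1 and CCT3), and 2318 of all genes in either direction. The share of all genes called higher was not computed here either. The median log2 change in that fit was -0.12 for all genes and 0.32 for the members.

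In WT, 1 of 8 was called, against 5.77% of all genes: CCT3 (log2 0.83, SE 0.209, edgeR adjusted p = 0.02659). The other 7 had values of 0.28 (CCT6A) to 0.51 (TCP1), with edgeR adjusted p = 0.05859 to 0.3074. With the fraction as a block 7 of 8 were called, against 14% of all genes, and CCT6A was not (edgeR adjusted p = 0.06237). With the block and total counts together 1 of 8 was called higher (CCT3), and 5866 of all genes in either direction. Again the share of all genes called higher was not computed. The median log2 change in that fit was -0.30 for all genes and 0.18 for the members. CCT3 did not pass in WT without the first WT IP (edgeR adjusted p = 0.1078), the second WT input (0.1234) or the first WT input (0.1514). Those fits called 344, 0 and 212 of all genes.

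Lines were compared for the recovery of chaperonin mRNAs with interaction contrasts, each the difference in IP over input between 2 lines. In each of the 3 contrasts 0 of 8 mRNAs were called by edgeR and 0 by DESeq2, with 0 of 8 at an unadjusted p under 0.05. Of all genes, 0% were called higher in each. S38D minus S38A was 0.08 (CCT4) to 0.44 (CCT3) on the log2 scale, positive for 8 of 8 mRNAs with a median of 0.16. It was positive for 4 of 8 without the first S38A input (median 0.04), for 6 of 8 without the second S38A IP (median 0.06) and for 7 of 8 with total counts (median 0.02, against -0.16 for all genes). The 95% interval for CCT3 was -0.19 to 1.08 (edgeR adjusted p = 1), which includes 0 and also a change of 2-fold. S38D minus WT was 0.05 (CCT2) to 0.21 (CCT6A), with intervals that together span -0.50 to 0.85. S38A minus WT was -0.31 (CCT3) to 0.05 (CCT4), and the interval for CCT3 was -0.94 to 0.32. Its median, -0.04, lay between -0.21 and 0.12 with 1 library left out, and was 0.10 with total counts, against 0.19 for all genes. These contrasts share lines, so their values are not independent, and the intervals leave differences of either sign possible. The IP libraries of S38A also had the lowest spike-in shares, and the part of this in the contrasts was not tested.

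The inputs were compared to see whether 80S-associated chaperonin mRNA itself differed between lines. In each of the 3 contrasts 0 of 8 mRNAs were called by edgeR and 0 by DESeq2, with 0 of 8 at an unadjusted p under 0.05. Of all genes, edgeR called 0.00598% higher in S38D than in S38A, 0.00598% in S38D than in WT, and 0% in S38A than in WT. In the same order, DESeq2 called 2, 11 and 398 of all genes in either direction. S38D minus S38A was -0.04 (CCT5) to 0.16 (CCT8), and the edgeR adjusted p was 0.9616 to 0.9996. S38D minus WT was -0.27 (CCT5) to 0.02 (CCT8). S38A minus WT was negative for 8 of 8, from -0.29 (CCT4) to -0.09 (CCT2), and the lowest edgeR adjusted p was 0.3851, for CCT4. Without the second S38A input 2 of 8 were positive, and without the second WT input 1 of 8. With sizes taken from the ERCC spike-in, 0 of 8 and 0 of all genes were called in any contrast, and the median of the 8 was -0.35 for S38D minus S38A, -0.92 for S38D minus WT and -0.60 for S38A minus WT. All genes moved with this scaling, to medians of -0.40, -0.83 and -0.44, and S38D minus S38A turned negative for 8 of 8. ERCC took 0.116% of counts in the first WT input and 0.484% in the second, so the replicates of this scaling differed widely. Single libraries of S38A and WT stood at the ends of the range. The second S38A input was the lowest of the 6 inputs for 7 of 8 mRNAs and the second WT input the highest for 7 of 8. The 8 genes together took 0.173% and 0.179% of gene counts in S38D inputs, 0.188% and 0.156% in S38A inputs, and 0.179% and 0.198% in WT inputs, so the lines overlapped.

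**Figure D4:**
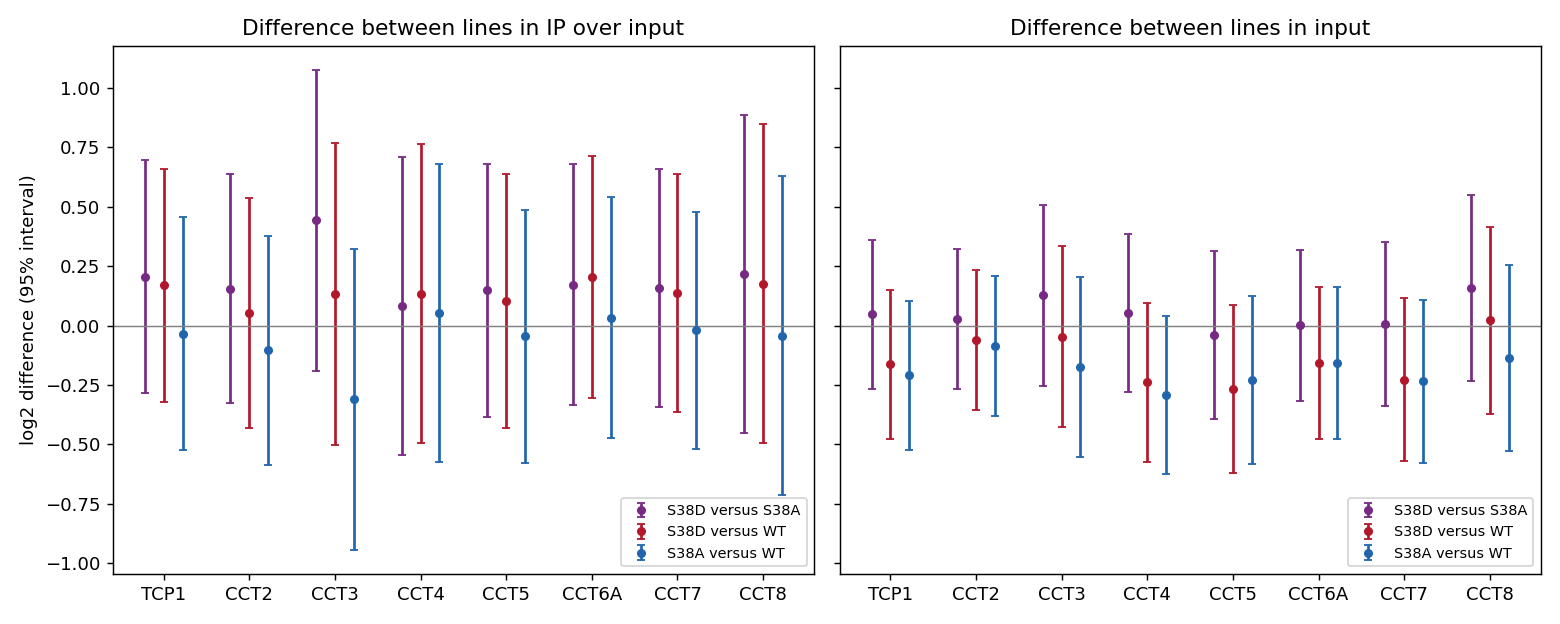
Log2 difference between lines (points) with its edgeR 95% interval (bars) for each chaperonin mRNA, in IP over input (left panel) and in input alone (right panel); purple is S38D versus S38A, red S38D versus WT and blue S38A versus WT. All intervals include 0, and the point farthest from 0 is CCT3 in S38D versus S38A (0.44, left panel).

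All pairs of the 8 mRNAs had positive correlations across libraries of 1 kind, to differing extents. Over the 6 IP libraries the 28 pairs of members had Pearson correlations of log2 CPM between 0.31 and 0.94, with a median of 0.73, and over the 6 inputs between 0.40 and 0.98, with a median of 0.81. Against the mean of the other 7, r was lowest for CCT5 in the IP libraries (0.59) and for CCT8 in the inputs (0.69). These are descriptions over libraries that share lines, fractions and scaling. Pairs of other genes of like level were not compared, so the values do not show that the members are alike beyond such genes. Of 13096 other genes with a mean of at least 5 CPM, the 2 most like the mean of the 8 over the 12 libraries were ENSG00000175203 (Pearson r = 0.992) and ENSG00000241685 (0.991). The first stood at 189 ± 27.9 CPM in IP libraries and 128 ± 15.2 CPM in inputs (SD, n = 6 each). Its r was 0.994 within the IP libraries and 0.963 within the inputs. Both genes were picked for the highest r over these same libraries, so high values within them are no separate evidence of likeness.

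Some counts may hold reads of other genes. The annotation places ACAT2, SNORA20 and SNORA29 over TCP1, TSACC over CCT3, COMMD1 and LOC124907773 over CCT4, and SNORA15 and SNORA22B over CCT6A, and how the counting treated strand is not given. It also names 16 pseudogenes after 7 of the 8 members, 5 of them after CCT6A and 3 after TCP1, and none after CCT2. The genes lie on chromosomes 6 (TCP1), 12 (CCT2), 1 (CCT3), 2 (CCT4 and CCT7), 5 (CCT5), 7 (CCT6A) and 21 (CCT8), 7 chromosomes in all.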

How the data were processed

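For each library the authors deposited a table of raw counts, with 57820 Ensembl identifiers and 92 ERCC sequences. The submitters' processing notes name STAR 2.4.2a, bcl2fastq 2.16.0.10, DESeq2 and hg19. Not given in the sources used here are the annotation release, the read counter and its treatment of strand and of reads that map to several places. Library sizes and tests left ERCC counts out, except where they scaled the inputs as an alternative.

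The analysis used edgeR 4.0.16 in R 4.3.3, with filterByExpr on group (minimum count 10), TMM scaling, glmQLFit and glmQLFTest, and Benjamini-Hochberg adjustment over all genes within each of 10 comparisons. Comparisons of IP with input came from 1 fit of 12 libraries (16920 genes, biological coefficient of variation 17.4%), and those of inputs from a fit of 6 (16728 genes, 15.7%). Standard errors are the log2 change divided by the square root of F. A prior count of 2 entered log2 CPM. Simulated counts with known changes were used to test the fits.

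The 8 members are named in every comparison, and other genes only for likeness, the 2 of highest r. The members and lists were chosen with earlier results of these data known. Lists set by symbol matched 0 identifiers. Promoter windows of 6 members were used; CCT5, whose window lies away from the annotated gene start, and CCT6A were not.

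The labels give same-numbered input and IP libraries 1 fraction, and deviations of such libraries from group means correlated across genes at 0.54 in S38D, 0.64 in S38A and 0.28 in WT. The fraction was therefore a replicate block in an alternative fit. Replicates differed beyond sampling noise in every group, with chi-square over degrees of freedom of 5.74 to 17.4. Other alternatives were total counts, RLE size factors, ERCC scaling of the inputs, no filter, mean CPM of at least 10, DESeq2 1.42.0, fewer libraries in the fit and omission of each library. Added after seeing the data were the block with total counts and the block with the first WT fraction omitted.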

Additional observations from a re-analysis of the deposited data

Results flagged for a closer look

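ERCC spike-in RNA, which scaled the inputs in 1 alternative and entered no other comparison, averaged 3.43% of counts in IP libraries and 0.305% in inputs. It is listed here because it is a signal outside the gene counts that stands above its level in the inputs. How much was added to IP RNA is not stated in the labels.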

How the results depend on the processing

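The cause of the differences below was not tested. Numbers are of the 8 mRNAs called, with the number of all genes called in either direction in brackets. Every call of a member was higher, so the brackets are not a like background for them. Over the 3 lines it was 4 [6549] with total counts, and 6 to 8 when single libraries were omitted [4007 to 5770], against 8 [5378]. For S38D, in place of 2 [824], total counts gave 1 [1622], DESeq2 6 [1629], the 4 S38D libraries alone 6 [1530], the replicate block 8 [3379], the block with the first WT fraction omitted 8 [6423], and omission of single libraries 0 to 3 [0 to 1809]. For S38A, in place of 0 [0], the replicate block gave 6 [2079], the block plus total counts 2 [2318], and the block with the first WT fraction omitted 8 [6087]. For WT, in place of 1 [1903], RLE size factors gave 2 [1885], total counts 0 [2928], DESeq2 3 [2587], mean CPM of at least 10 gave 2 [2149], the 4 WT libraries alone 0 [0], the replicate block 7 [4818], the block with the first WT fraction omitted 7 [5087], and omission of single libraries 0 to 1 [0 to 2869]. The block plus total counts also gave 6 [8968] over the 3 lines, 3 [5184] for S38D and 1 [5866] for WT. Without the filter the numbers were 7 [5591] over the 3 lines and 3 [1555] for S38D. The filter on mean CPM of at least 10 gave 3 [1096] for S38D. With the first WT fraction omitted WT has 1 pair of libraries, so its spread comes from S38D and S38A. That fit, which has few residual degrees of freedom, also gave 1 call (CCT3) for S38D versus S38A in IP over input [405]. The replicate block changed no other call count, and the remaining contrasts between lines were at 0 of 8 under every alternative run. Of 1480 single-gene values, 1306 kept their direction and side of the threshold, 29 no longer passed, 58 newly passed, 87 that had not passed changed sign, and 0 called values reversed. Groups of 2 libraries limit how small a difference between lines could be called.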
